A study of Mus musculus with 2 samples.

Results

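The cells described here are microglia of the demyelinated mouse corpus callosum in which at least 1 UMI (unique molecular identifier, a tag that counts 1 captured RNA molecule) of Cxcl9 or of Iigp1 was counted. They numbered 132 of 4439 kept cells: 62 of 2131 in the medial library and 70 of 2308 in the lateral library. The members were chosen by their UMIs of these genes alone. A cell is a barcode of 2400 UMIs or more, with 300 genes or more detected and no more than 10% of its UMIs from mitochondrially encoded genes. The series holds 2 single-cell libraries, 1 of the medial and 1 of the lateral corpus callosum, the white matter tract that joins the hemispheres. Both came from mice of the C57Bl6 strain labelled with the genotype CX3CR1 and given cuprizone, a copper chelator that kills oligodendrocytes and causes demyelination, for 4 weeks. The cells were sorted by flow cytometry from dissociated tissue and were not cultured. No library of untreated mice was analysed here, and neither the CX3CR1 allele nor the gate of the sort nor the number of mice behind a library is given. The cells were proposed for description under the name of interferon gamma type genes. The genes that differed most were those of the type I interferon response, so the cells are called here by the genes that chose them, or members.

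Interferon gamma is the interferon made mainly by T cells and natural killer cells, whereas the type I interferons can be made by most cells that sense foreign or misplaced nucleic acid. Both act through Janus kinases. The interferon gamma receptor signals chiefly to GAS elements of its target genes, and the type I receptor chiefly to ISRE elements. Many target genes answer to both. Cxcl9 encodes a chemokine that attracts T cells through the receptor CXCR3 and is regarded as a target chiefly of interferon gamma, and Iigp1 encodes an immunity-related GTPase that acts on the vacuoles of intracellular parasites and is induced by both kinds of interferon. In demyelinating tissue, microglia can take up interferon-responsive states beside the lipid-handling state marked by Apoe and Spp1.

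Sequencing gave 28660496 medial and 27955414 lateral UMIs, and kept cells had medians of 10732 and 9694 UMIs. Of the kept barcodes, 7 occurred in both libraries, and 0 of them was a member. Scrublet, a doublet caller, marked 5 cells in each library and 0 members, a share of kept cells too low to show that the caller worked, so doublets among the members were not excluded. All 10 microglia markers were detected in the members of both libraries, at 95.7 UMIs per 10000 in medial and 92.5 in lateral members, beside 105 and 106 in depth-matched other cells. Defining markers of other cells that could carry these genes were at 0 in members of both libraries: Cd3e, Cd3d, Cd3g and Cd8a of T cells, Flt3, Xcr1, Clec9a, Cd209a, Ccr7 and Ccl22 of dendritic cells, Ly6c2 of monocytes, Cldn5 and Ly6c1 of endothelium, Cd163 and Lyve1 of border macrophages, and all 6 neutrophil and all 5 mural markers. Of these, Cd3e, Cd3g, Cd8a, Cd209a, Ly6c2, Cldn5, Ly6c1, Cd163 and Lyve1 were at 0 in the matched cells of both libraries as well. So were the neutrophil markers S100a9, Retnlg, Ly6g, Camp and Ngp and the mural markers Rgs5, Kcnj8 and Vtn. Over the whole T and NK cell list of 12 markers, medial members stood at 0.0739 UMIs per 10000 against 0.0266 in matched cells, in 8.06% against 1.29% of cells, and lateral members at 0.0271 against 0.0244, from 5 and 2 member UMIs in all. The endothelial list of 8 markers was above matched cells in both libraries, at 1.36 against 1.10 and 1.37 against 1.05 UMIs per 10000. So was the astrocyte list of 6, at 0.517 against 0.434 and 0.610 against 0.350. The neuron list of 4 was above as well, at 0.133 against 0.0443 and 0.0814 against 0.0407, and the oligodendrocyte list of 6, at 0.842 against 0.792 and 0.705 against 0.681. The B cell list of 4 was below in both libraries, at 0.0886 against 0.151 and 0.0814 against 0.127. The monocyte list of 7 markers stood at 0.990 against 0.789 UMIs per 10000 in the medial library, where Plac8 was at 10.3 against 0 CPM (counts per 1000000 UMIs), and at 0.990 against 1.04 in the lateral library. The border macrophage list summed to 0.827 and 0.678 UMIs per 10000 in members and 0.874 and 0.670 in matched cells. The dendritic cell list summed to 1.36 and 1.13 UMIs per 10000 in members and 1.59 and 1.48 in matched cells. At least 3 different markers of a list were found together in 2 lateral members for the endothelial list and in 2 medial members for the border macrophage list, and in 0 members for the T and NK cell, dendritic cell and monocyte lists. The members thus carried microglia markers in both libraries, and the part of markers of other cells in the results was not tested.

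Cxcl9 and Iigp1 marked cells that overlapped little. Cxcl9 without Iigp1 was counted in 28 medial and 31 lateral cells, Iigp1 without Cxcl9 in 28 and 33, and both genes in 6 and 6. Because these genes chose the members, their values are a description and carry no test. Iigp1 was counted in 17.6% of Cxcl9 cells of the medial library and 1.34% of its other cells, and in 16.2% and 1.45% in the lateral library. Members just inside the limit held 1 UMI of the 2 genes together, 36 medial and 38 lateral cells, and cells just outside it held 0. A further 10 and 7 cells held 2 UMIs, and 16 and 25 held 3 or more. At the high end, a medial cell held 32 Cxcl9 UMIs and no Iigp1, and a lateral cell held 27 of each. The UMIs were concentrated: the 5 cells highest for each gene held 57.6% of the 118 medial and 51.1% of the 190 lateral Cxcl9 UMIs, and 51.9% of the 77 medial and 59.2% of the 130 lateral Iigp1 UMIs.

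**Figure D1:**
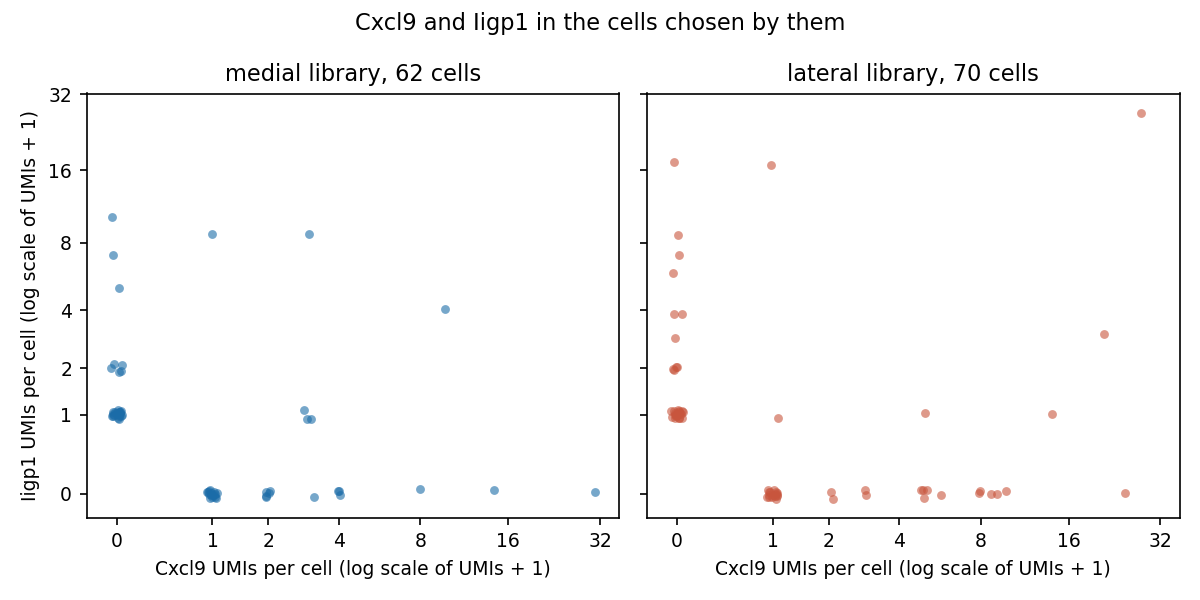
UMIs of Cxcl9 (horizontal) and Iigp1 (vertical) in each of the 62 medial and 70 lateral member cells, on a log scale of UMIs + 1 with a small random shift so that equal points can be seen. Most cells lie along an axis with 1 gene alone, and 6 cells in each library hold both.

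The share of members was close in the regions, 2.91% of medial cells (95% Clopper-Pearson interval 2.24 to 3.71) and 3.03% of lateral cells (2.37 to 3.82). All intervals on shares, levels and ratios within a library hold counting error and nothing else, and the regions, with 1 library each, could not be tested against each other. When every cell was thinned to 3869 UMIs, which left out 131 medial and 231 lateral cells below that depth, the shares were 1.65% and 1.93%, against 2.90% and 3.23% of the same cells before thinning. Free RNA also carried both genes. In barcodes of 1 to 50 UMIs, which hold no cell, Cxcl9 stood at 3.85 (medial) and 3.89 (lateral) CPM, from 9 and 10 UMIs. Over all kept cells it stood at 5.03 and 8.24 CPM. Iigp1 stood at 5.99 and 8.56 CPM in these barcodes, from 14 and 22 UMIs, beside 3.28 and 5.64 CPM over kept cells. The counting intervals of Iigp1 overlapped in both libraries. Its lower limits in these barcodes, 3.28 and 5.37 CPM, were under the upper limits of 4.11 and 6.70 CPM over kept cells. The part of free RNA in the choice of members was not tested, and cells are split by their number of UMIs below.

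Each member was compared with 5 other cells of its library that were nearest in total UMIs. The 310 medial and 350 lateral matched cells had median totals of 10680 and 10268.5 UMIs, beside 10674 and 10268.5 for members. UMIs were summed over members and over matched cells in each library, and the 4 sums were tested with edgeR's quasi-likelihood test with library as a block and Benjamini-Hochberg adjustment over 9841 genes. The error of a fold change comes from this fit, which has 1 residual degree of freedom and is moderated over all genes. The libraries are also the 2 regions. The error can be smaller than a gene's own difference between libraries. Cd74 had log2 ratios of 2.71 (medial) and 3.66 (lateral), with a fitted log2 fold change of 3.24 ± 0.08. For Cmpk2 the values were 3.88, 6.04 and 4.78 ± 0.29. Ifit3 was close in the libraries, at 5.13 and 5.09, with 5.16 ± 0.17. The error also does not hold the spread between cells, so the share of a gene's UMIs that came from its highest cell is given where it was large.

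The members were distinguished most by interferon-induced genes of several kinds. Antiviral genes of the type I interferon response had the largest differences, with log2 fold changes of 5.16 for Ifit3 and 4.98 for Rsad2. Class II antigen presentation genes, the chemokine Ccl5 and the interferon-induced GTPases Gbp2, Gbp7 and Irgm1 were higher as well. Microglial identity genes differed little. In all, 223 genes were higher in members, 2.27% of those tested, and 32 were lower, 0.325%, at an adjusted p under 0.05. Of these 255 genes, 250 had the same direction in both libraries. The fit that called them used the same libraries, so this count is no separate support. By at least 2-fold, 119 of the higher and 13 of the lower genes differed. DESeq2 called 69 genes higher, all among the 223, and 0 lower, with 11 lower at an unadjusted p under 0.05. The median log2 fold change of all genes tested was -0.01.

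**Figure D2:**
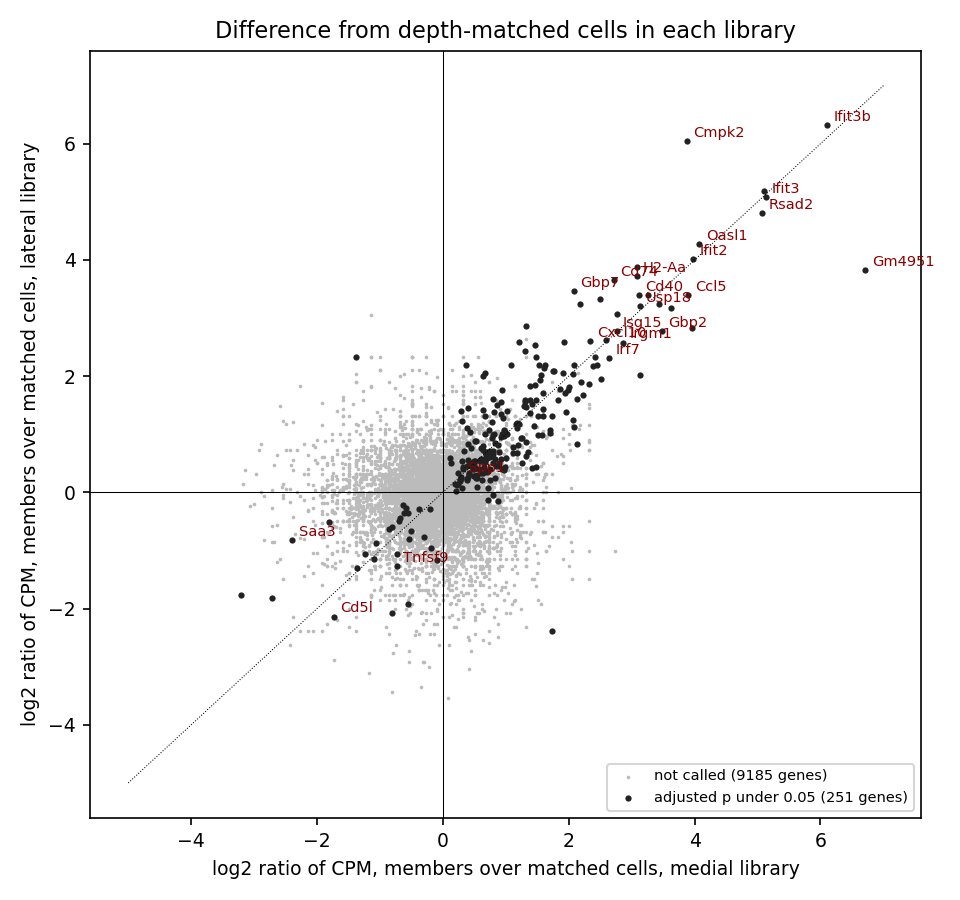
Log2 ratio of CPM, members over depth-matched cells, in the medial (horizontal) and lateral (vertical) library for 9436 tested genes, with 251 called genes in black. A further 405 tested genes are not drawn because a sum was 0. Ifit3b, Ifit3, Ifit1 and Rsad2 lie far out in both libraries, with Rsad2 at 5.08 and 4.80, while Gm4951 (6.71 medial, 3.82 lateral) and Cmpk2 (3.88 and 6.04) lie farther out in one library than in the other.

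Guanylate-binding proteins and immunity-related GTPases, which attack the vacuoles of intracellular pathogens, were higher in 6 of 8 tested list genes and lower in 0, with a median log2 fold change of 2.23. This count leaves out Gm4951, which had 81 UMIs outside the members and so reached the filter of 100 UMIs only with theirs; with it, 7 of 9 were called. Gbp9 and Irgm2, at 1.83 and 1.58, did not pass the test. The list holds 22 names: Gbp11 and Gm12250 were not analysed here, and the rest did not reach 100 UMIs over all kept cells. Gbp2 stood at 191 CPM in medial members against 17.1 in matched cells and at 96.3 against 14.1 in the lateral library, in 31 of 62 and 24 of 70 members beside 41 of 310 and 41 of 350 matched cells. Its log2 fold change was 3.23 ± 0.19 (SE; edgeR adjusted p = 6.68e-62). Gm4951, a gene model of the immunity-related GTPase family, was counted in 13 medial and 9 lateral members against 1 and 6 matched cells, given here as a description because of the filter. Gbp7 stood at 25.1 against 5.91 CPM in the medial and 42.0 against 3.80 CPM in the lateral library, a log2 fold change of 2.86 ± 0.35. Irgm1, which governs the other immunity-related GTPases, stood at 99.0 against 13.6 CPM and 108 against 18.2 CPM, a log2 fold change of 2.76 ± 0.20. For these genes the members were above the matched cells in both libraries.

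The promoters of Cxcl9 and of the GTPase genes that differed together are shown because interferon-activated factors act on short elements near the start site. They come from RefSeq (GRCm38.p6), run from 250 bases before to 50 bases after the transcription start and are written 5′ to 3′ on the gene's strand. Capitals mark GAS motifs (TTCNNNGAA) and ISRE-like motifs (GAAA, any 2 bases and GAAA, or the reverse complement, TTTC, any 2 bases and TTTC), searched on both strands.
Cxcl9, chr5:92328030-92328329, minus strand: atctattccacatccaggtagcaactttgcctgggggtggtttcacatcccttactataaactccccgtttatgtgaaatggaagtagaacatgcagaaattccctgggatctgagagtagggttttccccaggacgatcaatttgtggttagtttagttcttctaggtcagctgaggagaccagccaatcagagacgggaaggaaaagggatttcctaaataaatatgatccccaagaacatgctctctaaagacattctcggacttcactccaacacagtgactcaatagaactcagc
Gbp2, chr3:142620413-142620712, plus strand: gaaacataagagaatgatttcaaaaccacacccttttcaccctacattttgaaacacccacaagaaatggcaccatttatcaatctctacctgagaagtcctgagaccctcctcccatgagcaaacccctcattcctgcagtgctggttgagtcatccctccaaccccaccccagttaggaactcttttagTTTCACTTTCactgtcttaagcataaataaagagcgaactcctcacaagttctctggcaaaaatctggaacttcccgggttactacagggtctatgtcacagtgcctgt
Gbp7, chr3:142530086-142530385, plus strand: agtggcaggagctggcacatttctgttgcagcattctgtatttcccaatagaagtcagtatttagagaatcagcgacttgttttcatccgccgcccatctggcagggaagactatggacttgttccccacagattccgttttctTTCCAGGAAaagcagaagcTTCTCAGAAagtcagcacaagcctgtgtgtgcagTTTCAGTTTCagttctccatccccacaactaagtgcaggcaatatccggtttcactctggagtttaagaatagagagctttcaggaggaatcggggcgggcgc
Irgm1, chr11:48871371-48871670, minus strand: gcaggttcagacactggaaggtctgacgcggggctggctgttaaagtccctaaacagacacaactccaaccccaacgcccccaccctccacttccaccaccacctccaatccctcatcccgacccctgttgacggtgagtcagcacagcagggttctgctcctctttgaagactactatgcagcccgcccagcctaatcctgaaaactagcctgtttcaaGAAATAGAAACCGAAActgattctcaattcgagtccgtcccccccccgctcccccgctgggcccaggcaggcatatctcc

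The Gbp2 window held 1 ISRE-like match, TTTCACTTTC. The Gbp7 window held 2 GAS matches, TTCCAGGAA and TTCTCAGAA, and 1 ISRE-like match, TTTCAGTTTC. The Irgm1 window held 2 ISRE-like matches, GAAATAGAAA and GAAACCGAAA, that overlap each other. The Cxcl9 window held neither motif, which says only that these letters do not occur in this window. All 7 tested GTPase genes with a window held an ISRE-like match and 4 held a GAS match. Of the 32 type I antiviral list genes with a window, 18 held an ISRE-like and 7 a GAS match, and of 8 class II genes 1 held each. Over all 27025 genes with a window, 3.99% held an ISRE-like and 9.55% a GAS match. A match is a description of the letters and not of binding.

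Other targets of interferon gamma were higher in 15 of 21 tested genes and lower in 0, with a median log2 fold change of 0.89. Ccl5, a chemokine that attracts T cells and monocytes, stood at 741 CPM in medial members against 49.6 and at 409 against 38.8 in the lateral library, a log2 fold change of 3.73 ± 0.13. In the medial library 41.6% of the members' Ccl5 UMIs came from 1 cell, which held 209 of 502, and in the lateral library the highest cell held 14.6%. Cxcl10, which shares its receptor with Cxcl9, stood at 569 against 112 CPM and 552 against 90.6 CPM, a log2 fold change of 2.53 ± 0.12. Cd40, the co-stimulatory receptor for T cell help, was counted in 9 of 62 and 12 of 70 members against 10 of 310 and 9 of 350 matched cells, a log2 fold change of 3.28 ± 0.44. The checkpoint ligand Cd274 (PD-L1) was at 51.7 against 21.9 CPM and 69.2 against 36.3 CPM, a log2 fold change of 1.11 ± 0.21, and DESeq2 did not call it. The transcription factor Irf1, an early target of interferon gamma, was at 103 against 58.5 CPM and 138 against 77.0 CPM, a log2 fold change of 0.89 ± 0.15 that DESeq2 did not call either.

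Class II antigen presentation genes, which display extracellular peptides to CD4 T cells, were higher in 8 of 10 tested genes and lower in 0 (median log2 fold change 1.09). The invariant chain Cd74 stood at 3944 CPM in medial members against 601 and at 3677 against 292 in the lateral library, a log2 fold change of 3.24 ± 0.08. H2-Aa, a class II alpha chain, stood at 873 against 103 CPM and 891 against 67.8 CPM, a log2 fold change of 3.45 ± 0.11, and H2-Eb1, a beta chain, had 3.52 ± 0.13. H2-Aa was nevertheless counted in only 31 of 62 medial and 46 of 70 lateral members, beside 70 of 310 and 71 of 350 matched cells. The protease Ctss was higher by a log2 fold change of only 0.30 ± 0.06, a call that DESeq2 and scaling by totals did not make.

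The class I pathway, which shows peptides of the cell's own proteins to CD8 T cells, differed by less but in most of its members. Of 11 tested class I genes, 7 were higher and 0 lower (median 0.74; without H2-T24, which reached the filter only with the members' UMIs), and of 12 immunoproteasome and peptide-loading genes, 7 were higher and 0 lower (median 0.59). The peptide pump Tap1 stood at 137 against 42.2 CPM in the medial and 106 against 52.3 in the lateral library, a log2 fold change of 1.41 ± 0.16. B2m, the light chain of class I, stood at 7723 against 5919 CPM and 8861 against 6491 CPM, a log2 fold change of 0.48 ± 0.05. H2-T22 and H2-T23, nonclassical class I genes, had 1.20 ± 0.14 and 0.96 ± 0.12, and H2-Q7 had 1.03 ± 0.17. Reads of 57 bases cannot always tell such genes apart: 29.5% of H2-T22 and 23.4% of H2-Q7 windows of that length occur in transcripts of other genes. The immunoproteasome subunits Psmb9 and Psmb10 had 0.92 ± 0.14 and 0.76 ± 0.14. DESeq2 called neither these subunits nor H2-Q7, and B2m was not called without the library block. Calr, a general chaperone of the endoplasmic reticulum on the same list, had -0.04 ± 0.09.

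Interferon gamma itself was not detected in members. Ifng had 0 UMIs in the members of either library, which allows up to 4.43 CPM in medial and 4.07 CPM in lateral members by a limit of 3 counts, and 1 UMI in lateral matched cells. The receptor chains did not pass the test. Ifngr1 was at 186 CPM in medial members against 184 in matched cells and at 133 against 161 in the lateral library, a log2 fold change of -0.06 ± 0.13, and Ifngr2 had 0.15 ± 0.12. Of 21 tested receptor and signalling genes 7 were higher and 0 lower, with a median of 0.29. They included Irf7, the amplifier of type I interferon production, at 309 against 49.3 CPM and 235 against 47.2 CPM (2.54 ± 0.14). Usp18, which damps the type I receptor, had 3.23 ± 0.21. Among 7 tested ligands and inducers, Il23a alone was called, at 50.2 against 15.1 CPM in the medial library and 1.36 against 7.05 CPM in the lateral library. The libraries gave Il23a opposite directions and 88.2% of its medial member UMIs came from 1 cell, and DESeq2 did not call it.

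Genes of the type I antiviral response were higher in 41 of 43 tested genes and lower in 0, with a median log2 fold change of 1.77. Ifit3, which works with Ifit1 in the binding of viral RNA, stood at 279 CPM in medial members against 7.98 and at 286 against 8.41 in the lateral library, a log2 fold change of 5.16 ± 0.17. Rsad2 (viperin), an enzyme that makes a chain-terminating nucleotide, stood at 239 against 7.09 CPM and 212 against 7.59 CPM, a log2 fold change of 4.98 ± 0.19. Isg15, a ubiquitin-like modifier, stood at 490 against 72.4 CPM and 361 against 52.9 CPM, a log2 fold change of 2.82 ± 0.12. The groups differed in both libraries for each, but few cells carried the highest genes. Rsad2 was counted in 10 of 62 and 12 of 70 members, and 53.7% of its medial and 26.3% of its lateral member UMIs came from the highest cell. With members chosen by Cxcl9 alone or with Iigp1, the log2 fold change of Rsad2 turned to -1.37 and was not called (edgeR adjusted p = 0.933). Ifit3 was counted in 18 and 15 members. Ifit1, Ifit2, Cmpk2 and Oasl1 had log2 fold changes of 5.19 ± 0.22, 4.05 ± 0.21, 4.78 ± 0.29 and 4.19 ± 0.40. The highest cell held 53.9% of the medial and 36.6% of the lateral member UMIs of Ifit1. For Cmpk2 these shares were 42.6% and 31.8%, for Oasl1 48.1% and 18.5%, and for Ifit2 23.5% and 22.1%. Ifit3b had the largest fold change of the named genes, 6.16 ± 0.37, but 41.9% of its windows and 48.1% of those of Ifit3 occur in transcripts of other genes. Reads of such windows cannot be assigned to 1 gene by their sequence. Ly6e, an abundant membrane protein of the list, had 0.50 ± 0.08, a call that DESeq2 did not make.

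Among 34 cytokine and NF-kB genes 8 were higher and 1 was lower, with a median of 0.11, and the higher genes were led by chemokines of the CCR2 ligand family. Ccl12 stood at 990 against 165 CPM in the medial and 993 against 160 CPM in the lateral library, a log2 fold change of 2.67 ± 0.10. Ccl2, the main attractant of monocytes, stood at 226 against 53.8 CPM and 137 against 33.4 CPM (2.12 ± 0.15). Il1rn, the antagonist of the interleukin-1 receptor, had 1.27 ± 0.16. Tnf was at 369 against 231 CPM in the medial and 182 against 201 CPM in the lateral library and was not called (0.36 ± 0.12; edgeR adjusted p = 0.0764). Tnfsf9 (the ligand of 4-1BB) was the lower gene, at 32.5 against 54.1 CPM and 35.3 against 85.2 CPM, a log2 fold change of -0.98 ± 0.21, and DESeq2 did not call it. Pyhin1, Pydc4 and Mnda, interferon-induced genes of the PYHIN family, were also among the largest, with 3.43 ± 0.30, 3.39 ± 0.40 and 3.38 ± 0.23.

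The lipid-handling, disease-associated state differed by less. Of its 28 list genes 13 were higher and 1 lower, with a median of 0.12. Apoe, the main lipid carrier, stood at 55229 against 47629 CPM in the medial and 42852 against 42224 CPM in the lateral library, a log2 fold change of 0.18 ± 0.04. Apoc1 had 0.71 ± 0.11, Ch25h, which makes an oxysterol, 0.74 ± 0.17, and Itgax (CD11c) 0.78 ± 0.23. Igf1, a growth factor for the oligodendrocyte lineage, was lower, at 310 against 479 CPM and 480 against 556 CPM (-0.35 ± 0.10). Spp1 (osteopontin) was higher at 5205 against 4241 CPM and 6938 against 5747 CPM (0.34 ± 0.06), but 43.0% of the lateral member UMIs came from 1 cell. Its direction turned with the choice of members, to -0.29 with at least 2 UMIs of the choosing genes and to -1.14 with Cxcl9 alone as the choosing gene. DESeq2 called none of Apoe, Ch25h, Itgax, Igf1 and Spp1, and Apoc1 was not called without the library block.

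Homeostatic microglia genes were higher in 0 and lower in 2 of 24, with a median of -0.09. Rhob and Fcrls had -0.47 ± 0.12 and -0.27 ± 0.08. P2ry12, the purinergic receptor of surveying microglia, was at 340 against 408 CPM and 374 against 445 CPM and was not called (-0.20 ± 0.11), and Tmem119 had -0.31 ± 0.10 (edgeR adjusted p = 0.078). Of 26 immediate early genes, which respond within minutes to stimulation or dissociation, 3 were higher and 1 lower (median 0.07): Dusp1, Dusp2 and Junb at 0.40 ± 0.12, 0.51 ± 0.15 and 0.25 ± 0.07, and Nr4a1 at -0.46 ± 0.14. Dusp1 and Dusp2 were not higher in the lateral library, at 190 against 207 CPM and 73.2 against 75.7 CPM. Of 28 cell cycle genes 0 passed in either direction (median -0.02). Of 9 complement genes 2 were higher and 0 lower (median 0.15): C3, the central component, at 2.26 ± 0.65 and C2 at 2.03 ± 0.48, counted in 5 and 6, and 10 and 7, member cells of the medial and lateral libraries. DESeq2 called none of Rhob, Fcrls, Dusp1, Dusp2, Junb, Nr4a1, C3 and C2.

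The genes lower in members were mostly of low level. Cd5l, a secreted macrophage protein, stood at 7.39 CPM in medial members against 24.5 and at 2.71 against 11.9 in the lateral library, a log2 fold change of -1.79 ± 0.47. Saa3, an acute-phase protein of myeloid cells, stood at 7.39 against 38.7 CPM and 14.9 against 26.3 CPM (-1.44 ± 0.33). The highest cell held 40.0% of the 5 medial and 72.7% of the 11 lateral member UMIs of Saa3. Cln3, a lysosomal membrane protein, stood at 35.4 against 73.8 CPM and 43.4 against 79.5 CPM (-0.90 ± 0.20). These 3 were below matched cells in both libraries. Pced1b had 0 UMIs in members against 45 in matched cells, at least 3-fold lower by a limit of 3 UMIs over the members. The other named lower genes, Unc119b, Nme4, Cep85, Sesn1, Slpi, Fam217b, Pcp4, Zfp326, Armc1 and Prosc, had log2 fold changes between -3.30 and -0.98. DESeq2 called none of the 32.

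The genes that were higher in members as a whole did not move together within them. When the members with Cxcl9 alone and those with Iigp1 alone were taken apart, a split made after the data were seen, the antiviral genes were high in the Iigp1 cells and near the level of matched cells in the Cxcl9 cells. Class II genes and Ccl5 were high in both, and higher in the Cxcl9 cells. The cells with Cxcl9 alone were compared directly with those with Iigp1 alone over 9799 genes by the same edgeR test: 15 genes were higher in the Cxcl9 cells, 0.153% of those tested, and 96 were lower, 0.98%. These groups were not matched on depth, with median totals of 9745 and 12452.5 UMIs in the medial and 9753 and 10696 in the lateral library.

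Of 43 type I antiviral genes, 32 were lower and 0 higher in the cells with Cxcl9 alone than in those with Iigp1 alone, with a median log2 fold change of -1.88 beside 0.01 for all genes tested. Rsad2 had 1 UMI in the 28 medial and 1 in the 31 lateral Cxcl9 cells, against 161 and 155 in the 28 and 33 Iigp1 cells. Its log2 fold change was -6.99 ± 0.43. Ifit3 had 1 and 3 UMIs against 177 and 206 (-6.35 ± 0.36), and Ifit1 had 1 and 1 against 87 and 144 (-6.55 ± 0.46). In the Iigp1 cells the highest cell held 54.0% of the medial and 26.5% of the lateral Rsad2 UMIs. These shares were 55.2% and 36.8% for Ifit1 and 23.7% and 32.5% for Ifit3. Isg15 stood at 71.8 and 65.6 CPM in the Cxcl9 cells, beside 72.4 and 52.9 in the cells matched to all members, and at 821 and 628 CPM in the Iigp1 cells (-3.42 ± 0.22). Against matched cells of their own depth, the Iigp1 cells had 42 of these 43 genes higher and the Cxcl9 cells 1. Over all genes the Iigp1 cells had 188 higher (1.91%) and 15 lower (0.152%) and the Cxcl9 cells 33 higher (0.335%) and 19 lower (0.193%).

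The GTPases and chemokines that both interferon kinds induce leaned the same way. Of 8 GTPases other than Gm4951, 2 were lower and 0 higher in the Cxcl9 cells than in the Iigp1 cells, namely Irgm1 (-2.35 ± 0.35) and Gbp7 (-3.33 ± 0.64). Gbp2 stood at 126 and 53.1 CPM in medial and lateral Cxcl9 cells and at 193 and 97.1 CPM in Iigp1 cells, and this difference was not called (-0.74 ± 0.28; edgeR adjusted p = 0.332). Against its own matched cells Gbp2 was called in each, at 2.04 ± 0.32 with Cxcl9 alone and 3.45 ± 0.28 with Iigp1 alone. Cxcl10 stood at 144 and 156 CPM with Cxcl9 alone and 709 and 848 CPM with Iigp1 alone (-2.41 ± 0.18), and Ccl12 had -2.41 ± 0.15 and Ccl2 -1.88 ± 0.27. The cells with both genes were few, 6 per library, and had the highest Gbp2 levels of the members, 447 and 297 CPM.

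Class II genes had the opposite lean: 4 of 10 were higher and 0 lower in the Cxcl9 cells. Cd74 stood at 5228 and 4270 CPM in medial and lateral Cxcl9 cells and at 2847 and 2488 CPM in Iigp1 cells (0.79 ± 0.09), H2-Aa at 1155 and 987 against 679 and 626 CPM (0.68 ± 0.13), and H2-Eb1 had 0.59 ± 0.16. The fourth, H2-Ab1, which was named after its value was seen, had 0.74 ± 0.13. In each of these 4 sums the highest cell held between 21.4% and 44.9% of the Cd74 UMIs and between 20.3% and 43.4% of the H2-Aa UMIs. Ccl5 stood at 728 and 453 CPM with Cxcl9 alone and 166 and 197 CPM with Iigp1 alone (1.63 ± 0.18), and the highest cell of each sum held between 29.0% and 38.2% of its UMIs. Cell cycle genes were called higher in 4 of 28. Mki67, a proliferation marker, stood at 28.7 and 93.7 against 0 and 34.3 CPM (1.80 ± 0.48), from 8 and 30 against 0 and 12 UMIs. The highest cell held 37.5% of the medial and 23.3% of the lateral Mki67 UMIs of Cxcl9 cells, and 41.7% of those of lateral Iigp1 cells. Tubb5 had 0.61 ± 0.12, and Birc5 and Rrm2, both named after their values were seen, had 1.37 ± 0.34 and 2.75 ± 0.76. Spp1 was lower in the Cxcl9 cells, at 2347 and 3186 CPM against 8528 and 11245 CPM (-1.88 ± 0.08), and 1 lateral Iigp1 cell held 2199 of the 3937 Spp1 UMIs of its group.

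**Figure D3:**
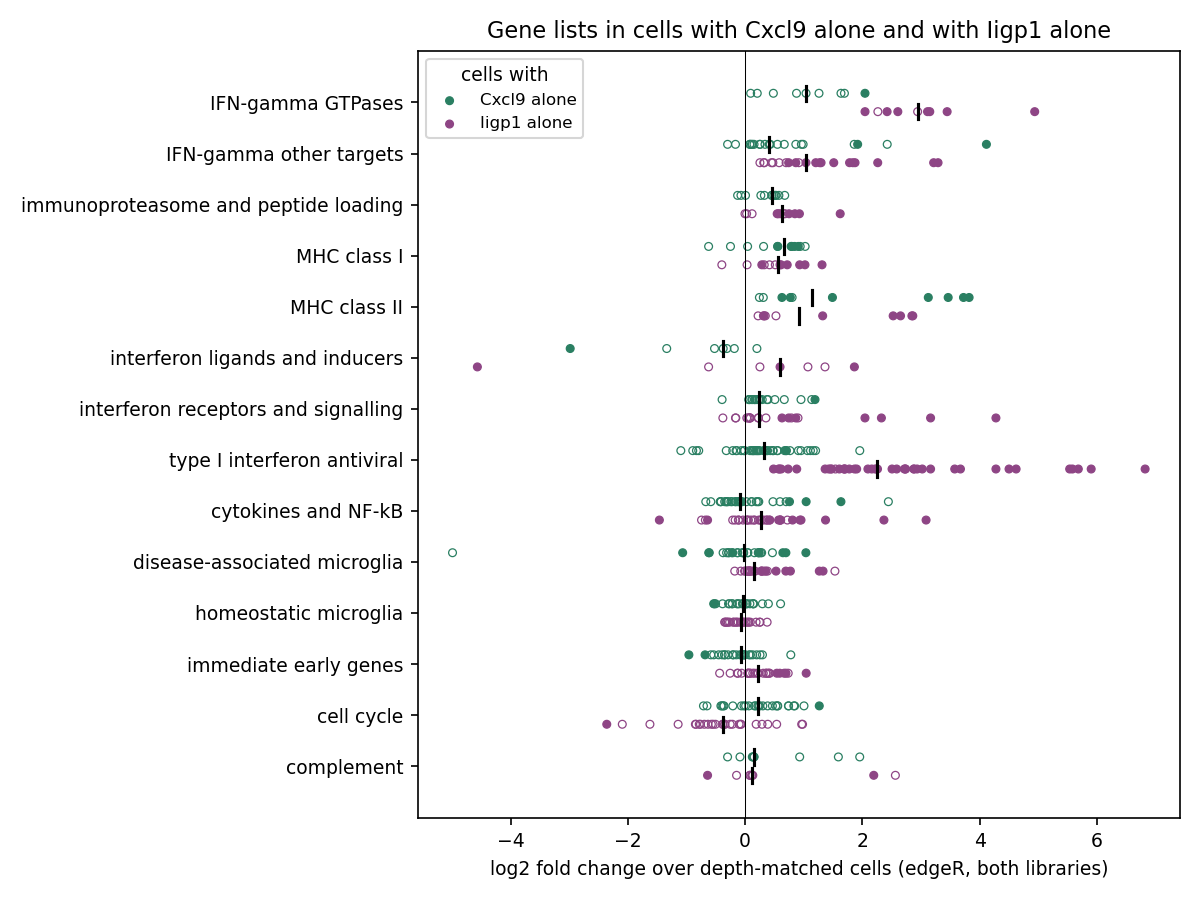
Log2 fold change over depth-matched cells (edgeR, both libraries) of each tested gene of 14 lists, in cells with Cxcl9 alone (green) and with Iigp1 alone (purple). Filled points passed the test and black bars are list medians. The type I antiviral list stands at a median of 0.32 with Cxcl9 alone and 2.24 with Iigp1 alone, and class II at 1.15 and 0.92.

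Cell by cell, most members with a high antiviral or class II level had 1 of these and not the other. A cell was counted as Ifit-positive when it held at least 2 UMIs of Ifit1, Ifit2, Ifit3, Ifit3b, Rsad2 and Cmpk2 together, and as class II-high when H2-Aa, H2-Ab1, H2-Eb1 and Cd74 made up more of its UMIs than in 90% of matched cells; both limits were set after the data were seen. Ifit-positive cells made up 29.0% of medial and 27.1% of lateral members, against 6.13% and 6.29% of matched cells. Class II-high cells made up 43.5% and 58.6% of members, against 10.0% of matched cells by construction. Both were found in 5 medial and 5 lateral members, 8.06% and 7.14%, against 0.323% and 0.571% of matched cells. Of the members, 22 of 62 and 15 of 70 were neither, a state that 84.2% and 84.3% of matched cells had. Ifit-positive were 2 of 28 medial and 2 of 31 lateral cells with Cxcl9 alone, and 12 of 28 and 15 of 33 with Iigp1 alone. Class II-high were 15 of 28 and 20 of 31 cells with Cxcl9 alone, and 9 of 28 and 16 of 33 with Iigp1 alone.

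The cells with most UMIs of the choosing genes varied in form. The medial cell with 32 Cxcl9 UMIs held 838 class II UMIs, 5.99% of its total, and 0 of the Ifit set. A lateral cell with 17 Iigp1 UMIs held 125 UMIs of the Ifit set and 1 of class II, and another with 17 Iigp1 UMIs and 1 of Cxcl9 held 6 and 5. The medial cell highest for Iigp1, with 10 UMIs and no Cxcl9, held 199 class II UMIs and 0 of the Ifit set. The lateral cell with 27 UMIs of each gene held 268 class II UMIs, 2 of the Ifit set and 9 of Gbp2. A medial cell with 10 Cxcl9 and 4 Iigp1 UMIs held 209 Ccl5 UMIs, 3 of class II and 7 of the Ifit set. The cell with most Ifit-set UMIs in each library, 213 in medial and 177 in lateral, held 2 and 3 UMIs of Iigp1 and none of Cxcl9.

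**Figure D4:**
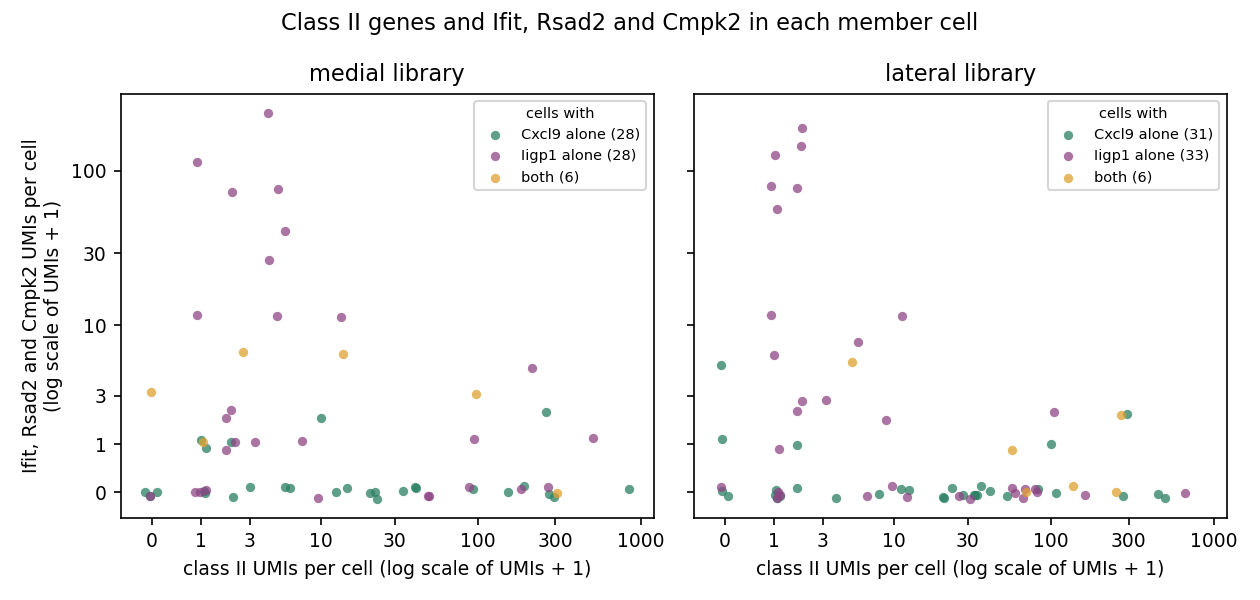
UMIs of 4 class II genes (horizontal) and of Ifit1, Ifit2, Ifit3, Ifit3b, Rsad2 and Cmpk2 together (vertical) in each member cell, log scales of UMIs + 1 with a small random shift. The 11 cells with more than 30 Ifit-set UMIs have Iigp1 alone and at most 5 class II UMIs, and the 5 cells with more than 300 class II UMIs have at most 1 of the Ifit set.

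Members with a lone UMI of the choosing genes had fewer genes called. All 57 of their higher genes were among the 223 of all members. These cells are part of the sums that gave the 223, so the overlap is no separate support. Tested against their own matched cells, the 36 medial and 38 lateral members with 1 UMI had 57 genes higher (0.579%) and 8 lower (0.0813%), and the 26 and 32 members with 2 or more had 225 higher (2.29%) and 41 lower (0.417%). Gbp2 stood at 104 CPM in medial and 37.5 in lateral members with 1 UMI, 127 and 86.8 with 2, and 443 and 182 with 3 or more, beside 17.1 and 14.1 in matched cells. Its levels kept this order in both libraries, with overlapping counting intervals between 1 and 2 UMIs. Cxcl10 stood at 147, 1346 and 1020 CPM in medial and 217, 816 and 976 CPM in lateral members, so that it was lowest with 1 UMI in both libraries but had no common order of the other groups. Ifit3 was not graded either, and stood at 78.6, 889 and 322 CPM in medial and 82.5, 226 and 590 CPM in lateral members. H2-Aa stood at 629, 356 and 1827 CPM in the medial and 532, 1580.3 and 1262 CPM in the lateral library, also without a common order. Of the 43 type I antiviral genes 22 were higher with 1 UMI and 40 with 2 or more, and of the 10 class II genes 4 and 8. P2ry12 and Tmem119, homeostatic genes, were lower in members with 2 or more UMIs (-0.66 ± 0.14 and -0.88 ± 0.14) and were not called in those with 1 (0.13 ± 0.14 and -0.05 ± 0.13); the difference between these 2 groups was not tested.

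**Figure D5:**
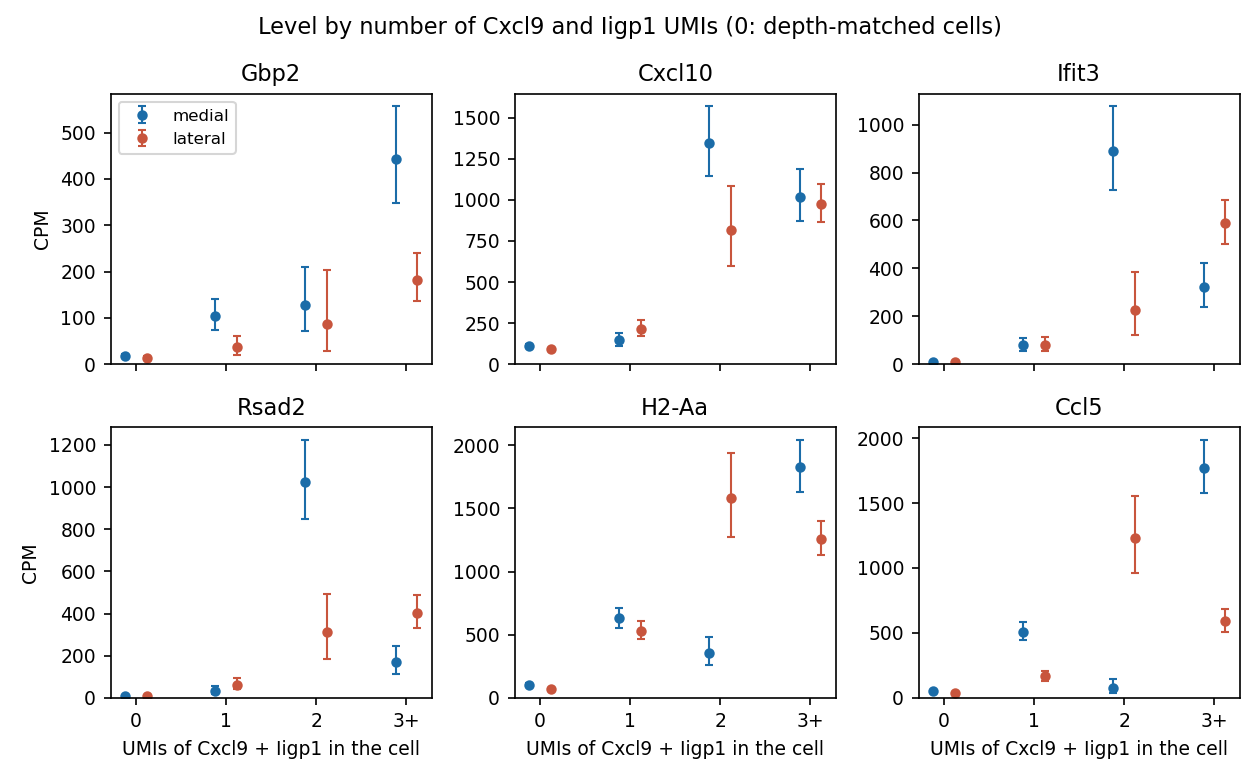
Level in CPM of 6 genes by the number of Cxcl9 and Iigp1 UMIs in the cell (0 stands for the cells matched to members), in the medial (blue) and lateral (red) library, with 95% Poisson intervals that cover counting error only. Gbp2 is higher with more UMIs in both libraries, and the order differs between libraries for Cxcl10, Ifit3, Rsad2, H2-Aa and Ccl5.

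Between the regions the members had close levels of H2-Aa, Cxcl10 and Ifit3, and more Gbp2 and Ccl5 in the medial library. H2-Aa stood at 873 CPM in medial and 891 in lateral members, a log2 ratio of -0.03 (counting interval -0.19 to 0.13), while matched cells had 103 and 67.8 CPM, a log2 ratio of 0.60 (0.37 to 0.84). Cxcl10 had a log2 ratio of 0.04 (-0.16 to 0.25) and Ifit3 of -0.04 (-0.33 to 0.25) in members. Gbp2 was higher in medial members by a log2 ratio of 0.98 (0.56 to 1.42), beside 0.28 (-0.28 to 0.85) in matched cells, and Ccl5 by 0.86 (0.65 to 1.07), beside 0.36 (0.03 to 0.69), with 41.6% of the medial Ccl5 UMIs in 1 cell. Mki67 was lower in medial members by a log2 ratio of -2.10 (-3.32 to -1.04), beside -0.39 (-0.86 to 0.07) in matched cells. Of the immediate early genes and cytokines, Dusp1 and Tnf had log2 ratios of 1.21 (0.92 to 1.51) and 1.02 (0.71 to 1.34) in members and 0.37 and 0.20 in matched cells. With 1 library per region these values describe the libraries, and region and library cannot be told apart.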

How the data were processed

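Whole-number UMI counts per gene and barcode, deposited by the authors without normalisation, were used for 2 mouse libraries (medial and lateral). The submitters' processing notes name the tools Cell Ranger 2.0.1 and STAR and the build mm10, with no annotation version. Counts covered 27998 gene IDs and 737280 barcodes per library, and 56 symbols with several IDs were summed. Depth was 28660496 and 27955414 UMIs. Kept cells and members were defined as in the report. Each member was matched to 5 other cells of its library by total UMIs (within 2% of the median). UMIs were summed per library and group and tested with edgeR 4.0.16 (R 4.3.3; quasi-likelihood, TMM, library block, genes with at least 100 UMIs, Benjamini-Hochberg threshold 0.05); DESeq2 1.42.0 was an alternative. The library block is the pairing: members and matched cells of a library come from the same tissue sample. Both libraries are of 1 region each. The p-values rest on the spread between these libraries, moderated over all genes, and can understate the spread of a single gene. Intervals are 95% (Poisson for CPM, Clopper-Pearson for shares, conditional binomial for ratios). On simulated counts for the comparison of members with matched cells, over 9841 genes, the test recovered 6%, 18%, 70% and 78% of 50 genes changed 1.5-, 2-, 4- and 8-fold, with 0 false calls. The simulated counts had 1 dispersion for all genes, taken from the same sums, and no cells that hold much of a gene's UMIs. They therefore do not measure the rate of false calls in the real counts.

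Members and gene lists were chosen with earlier results of these data known. Genes named are the 15 largest called in each direction with the same sign in both libraries (without mitochondrial, ribosomal and unnamed gene models), the 3 largest called in each direction and the most abundant gene of each of 14 lists, and 18 genes always named, of which 1 is not reported here. Gene names and 57-base windows came from the files and GENCODE M21, promoters from RefSeq. Alternatives changed the definition of cells and members, the matching, the gene filter, the scaling, the block and the tool, or left out a library.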

Additional observations from a re-analysis of the deposited data

Results flagged for a closer look

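Hspa8, a constitutive heat shock chaperone, differed in direction between the libraries: its log2 ratio of members to matched cells was 0.20 in the medial library (2250 against 1963 CPM) and -0.17 in the lateral library (1638 against 1844 CPM), each with a counting interval that excludes 0. The difference between the libraries was not tested, and the fit over both libraries did not call Hspa8 (log2 fold change 0.07 ± 0.07).

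Barcodes below the limit for a cell also carried Cxcl9 or Iigp1. Of barcodes with 500 UMIs or more but under 2400, 1.18% in the medial library (3 of 254; 95% Clopper-Pearson interval 0.244 to 3.41) and 0.794% in the lateral library (2 of 252; 0.0963 to 2.84) held at least 1 UMI of either gene, at median totals of 972 and 944.5 UMIs. They were not among the members.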

How the results depend on the processing

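The share of members depended on its definition: 1.22% of medial and 1.39% of lateral cells with at least 2 UMIs, 1.60% and 1.60% by Cxcl9, 1.60% and 1.69% by Iigp1, and 1.65% and 1.93% after thinning. The number of genes higher in members, 223, was 86 with members chosen by Cxcl9, 97 by Iigp1, 57 with exactly 1 UMI and 33 with Cxcl9 alone (the last of these, and exactly 1 UMI, chosen after the data were seen), 130 with the nearest matched cell alone, 136 with pairs thinned to the smaller total, 129 for genes with at least 500 UMIs, 116 with scaling by totals, 69 with DESeq2 and 103 without the replicate block, whose pairing is the shared library. The number lower, 32, was 1 by Iigp1, 7 with the nearest matched cell, 9 thinned, 20 without a gene filter, 5 for genes with at least 500 UMIs, 7 with totals, 0 with DESeq2 (11 at an unadjusted p under 0.05), 1 without the replicate block, 8 with exactly 1 UMI, 19 with Cxcl9 alone and 15 with Iigp1 alone. The cause of these moves was not tested. Between cells with Cxcl9 alone and with Iigp1 alone, DESeq2 called 2 higher and 22 lower, and the fit without the replicate block called 7 higher and 68 lower.

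Of 81 named genes with a test 69 were called. Of these, 21 stayed called under every alternative that tested them other than the fits added after the data were seen. Among the 21 were Gbp2, Irgm1, Ccl5, Cd74, H2-Aa, Cxcl10, Ifit3 and Isg15. The 21 also count Gm4951, which is a description only, because it reached the gene filter only with the members' UMIs. Gm4951 and Cd40 held 119 and 182 UMIs over all kept cells. The alternative for genes with at least 500 UMIs therefore did not test them. In the fits added after the data were seen, all 21 were called with Iigp1 alone, Gm4951 included. With exactly 1 UMI 17 were called, and with Cxcl9 alone 9, where Gm4951, Ifit3, Isg15, Cxcl10 and Irgm1 were not called. With members chosen by Cxcl9 the log2 fold change turned to -1.37 for Rsad2, -1.14 for Il23a, -0.17 for Dusp2, -0.16 for Junb and -1.14 for Spp1. Of these reversals only that of Spp1 was called (edgeR adjusted p = 6.14e-52). The others had edgeR adjusted p between 0.788 and 0.982. With at least 2 UMIs the log2 fold change turned to -1.18 for Il23a, not called, and to -0.29 for Spp1, called (edgeR adjusted p = 0.854 and 0.00433). Without the medial library it turned to -2.38 for Il23a, -0.047 for Dusp2 and -0.12 for Dusp1, beside 1.74, 0.80 and 0.72 without the lateral library. With a library left out no residual degrees of freedom remain, so these are values with no test and give no count of calls. Single-cell depth limits genes of low level: most members held 1 UMI of the choosing genes, and a count of 0 does not show that a cell lacks the RNA.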
